A study of Mus musculus with 22 samples.

Results

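Early reverted cells were compared with the AICAR cultures they had been expanded from. The 6 libraries were picked by their labels from the 22 bulk RNA-seq libraries of a study in which primed stem cells of the mouse epiblast (mEpiSCs) were returned to a naive-like state with activators of AMPK, the kinase that senses low cellular energy. The early reverted group held 4 libraries, labelled AICAR d16+2p, AICAR+LIF d16+2p, AICAR d16+3p and AICAR+LIF d16+3p, and the d16 group held 2, labelled AICAR d16 and AICAR+LIF d16. All 6 came from the Oct4GIP mEpiSC line, listed as XX and labelled strain 129/Ola, which carries a transgene that joins eGFP and puromycin resistance to the Oct4 promoter. For the d16 group, mEpiSCs were plated on feeder layers of mouse embryonic fibroblasts and kept for 16 days in basal medium with the AMPK activator AICAR, an adenosine analogue, alone or with the cytokine LIF, and the whole culture was taken. For the early reverted group, such cultures were dissociated at day 16 and expanded on gelatin in 2iL, which combines LIF with an inhibitor of MEK and an inhibitor of GSK3, for 2 (2p) or 3 (3p) passages. The groups therefore differed in medium, feeder layer, AICAR, time and number of passages together, and these cannot be told apart. The question put to the data was which transcripts separate the culture at the end of AICAR treatment from the first cells grown out of it.

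Each library was the only one of its condition, so no condition had a replicate, and the labels do not say whether the 2p and 3p libraries are successive passages of one culture. The p-values given here measure the spread between these libraries only. Totals were 3404489 reads counted on genes in AICAR d16+2p, 2678787 in AICAR+LIF d16+2p, 2880848 in AICAR d16+3p, 3046574 in AICAR+LIF d16+3p, 3231540 in AICAR d16 and 2686012 in AICAR+LIF d16. Between 21864 and 23566 genes had at least 1 read in each. Levels are given as CPM, which relate each count to its library's total after scaling by TMM factors. The floor below which a level was not read was 3 counts in a library, which came to between 0.923 and 1.14 CPM in the 6 libraries. Where every library of a group was at 0, the mean of the other group is given as at least so many fold higher against the highest floor of the group at 0. Where no library of a group held more than 3 counts and at least 1 held some, a ratio with its 95% counting interval is given. Such intervals and floors cover counting error only. Values of the early reverted group are always given in the order AICAR d16+2p, AICAR+LIF d16+2p, AICAR d16+3p, AICAR+LIF d16+3p, and values of the d16 group in the order AICAR d16, AICAR+LIF d16.

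The libraries AICAR d16+2p and AICAR+LIF d16+2p were nearly alike. Over 13451 genes with at least 20 summed counts, the mean chi-square of this pair was 1.39, where 1 stands for sampling noise alone, and the median was 0.566. Every other pair of early reverted libraries had a mean chi-square between 5.10 and 7.04, the d16 pair had 8.82, and pairs across the groups had between 87.7 and 103.4. The 2p pair thus differed by little more than sampling and adds little to the spread between samples. With both 2p libraries summed into 1 and no term for LIF, 11452 of 15541 genes were called (5866 higher and 5586 lower in early reverted cells), close to the count with the libraries kept apart that is given below.

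In the mouse embryo, naive pluripotent cells correspond to the epiblast before implantation and primed cells to the epiblast after it. Both express the core factors Oct4 and Sox2, but the naive state adds a set of transcription factors such as Esrrb, Klf2, Tfcp2l1 and Rex1 (encoded by Zfp42), carries little DNA methylation, and in female cells keeps both X chromosomes active. Cells that leave pluripotency silence these genes and take on neural, mesodermal or other programmes, and genes of the germline are held silent by DNA methylation in most somatic cells.

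Marker genes bore out the label of the early reverted libraries, and Pou5f1 and Esrrb were low in the d16 libraries. Pou5f1, which encodes Oct4, was at 991, 957, 1140.4 and 1232 CPM in the early reverted libraries and at 3.71 and 21.2 CPM in the d16 libraries, against 831 CPM in the 1 primed library of the same line. Esrrb was at 587, 521, 688 and 724 CPM in early reverted cells and at 1.24 and 1.86 CPM at d16, with 1.49 CPM in the primed library and 791 CPM in the 1 library of naive mouse embryonic stem cells (Rex1-GFP line). Col1a1, the collagen gene that marks fibroblasts, ran the other way, with 37.6, 45.0, 1.14 and 1.46 CPM in early reverted cells and 5414 and 6660.1 CPM at d16. All 4 early reverted libraries were above both d16 libraries for the pluripotency genes and below both for the collagen gene. In bulk RNA, fewer cells of a type and less RNA per cell of that type cannot be told apart, and this holds for every difference that follows.

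Of 34489 genes in the table, 15609 (45.3%) had enough counts to be tested with edgeR, with LIF as a covariate. At an adjusted p under 0.05, 5776 genes (37.0%) were higher and 5845 genes (37.4%) were lower in early reverted cells than at d16, so 11621 genes (74.5%) were called in all. The median log2 fold change over all genes tested was 0.02. Changes were large, since 4102 of the higher and 4697 of the lower genes moved by more than 1 on the log2 scale, and 634 and 965 by more than 5. The 4 early reverted libraries did not overlap the 2 d16 libraries for 12737 genes (81.6%), of which 6568 lay above and 6169 below. Among the tested genes, 366 had no count in either d16 library and 164 had none in the 4 early reverted libraries. With most of the transcriptome called in one direction or the other, a share of a gene list near 37.0% or 37.4% says nothing about that list.

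**Figure D1:**
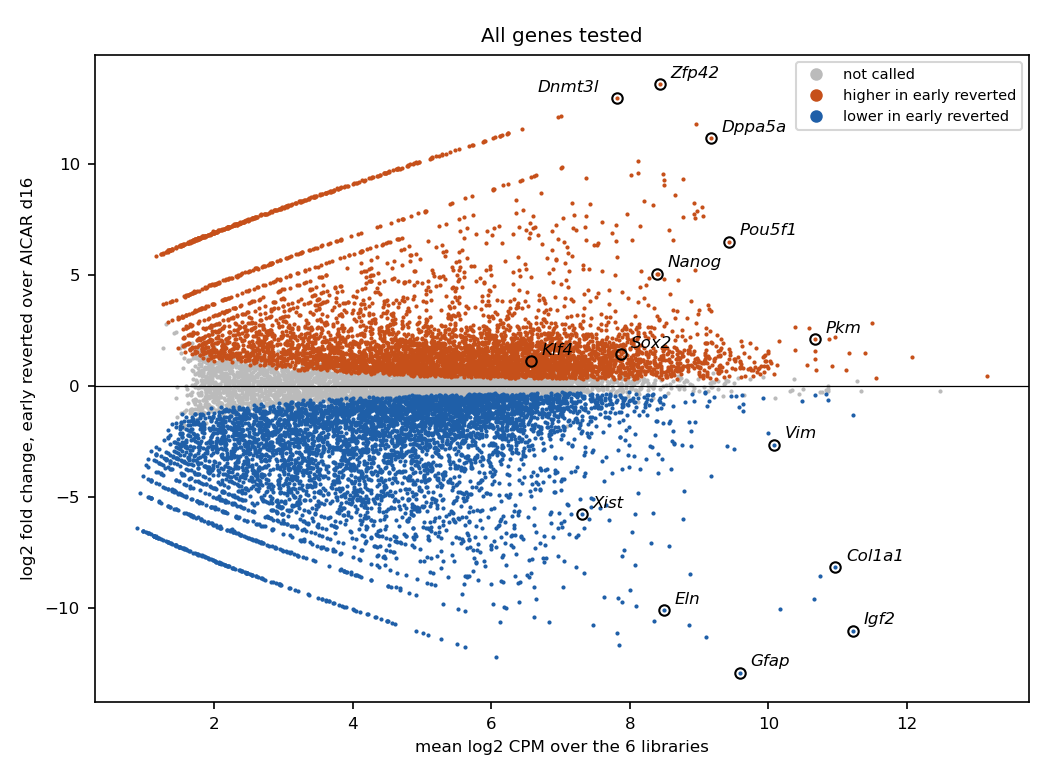
Each point is 1 tested gene, with its mean level over the 6 libraries (log2 CPM, horizontal) against its fitted log2 fold change of early reverted over d16 libraries (vertical), coloured by whether it was called higher, lower or neither. The 5776 higher and 5845 lower genes spread to both sides of a median of 0.02. The slanted streaks at the edges are genes with 0 or very few counts in one group, whose fitted change depends on the prior count, and Gfap and Zfp42 lie farthest out among the labelled genes.

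The 12 named genes with the largest rise were picked among called genes without overlap between the groups, so both traits hold by choice. Among these 12 genes, 10 had no count at all in either d16 library. Zfp42 (chr8:43295063-43306980 on the minus strand, GRCm38), the gene of the naive marker Rex1, was at 484, 469.6, 732 and 494 CPM in early reverted cells and at 0 and 0 CPM at d16. All 4 libraries were high and both d16 libraries silent, a level at least 488-fold higher (edgeR adjusted p = 1.02e-06). The gene was also at 0 in both AICAR libraries at day 8 and at 0.374 CPM in the primed library. Dppa5a, which encodes an RNA-binding protein of naive cells, was at 964, 867, 842 and 971 CPM against 0.309 and 0.372 CPM, which is 1 count in each d16 library. The early reverted libraries lay far above both, by 2709-fold (95% counting interval 749.8 to 22373, edgeR adjusted p = 1.16e-07).

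Levels of several of the 12 did not track those of the naive library. Utf1, a chromatin-bound pluripotency factor, stood at 179.8, 174, 165 and 266 CPM in early reverted cells and at 0 and 0 CPM at d16. It was at least 176-fold higher (edgeR adjusted p = 2.1e-06), yet was as high in the primed library (213 CPM) and far lower in the naive library (32.3 CPM). Dnmt3l, the cofactor of the de novo DNA methyltransferases, was at 344, 318, 384 and 367 CPM against 0 and 0 CPM. It was at least 316-fold higher (edgeR adjusted p = 4.32e-07), with no overlap, while the primed library held 0 CPM, the naive library 3.20 CPM and the 5 Oct4GIP libraries after 10 passages 1.68 to 38.4 CPM. Dnmt3l was thus high in the early reverted libraries and lower in each of these reference libraries, a difference that was not tested. Morc1, which silences transposons in the germline, was at least 181-fold higher (edgeR adjusted p = 6.72e-07). It stood at 179, 203, 216 and 211 CPM in the early reverted libraries, near the 176 CPM of the naive library. Gdf3, a ligand of the TGF-beta family, was at least 106-fold higher (edgeR adjusted p = 1.13e-06). Its early reverted mean of 118 CPM was also near that of the naive library, 115 CPM. The others were Dazl, which is described with the germline genes, the noncoding RNAs Platr10 and Platr13 (at least 97.6-fold and 97.5-fold higher), and Zfp980, Cyp2b23 and Trap1a. These 3 have close copies in the genome, so reads may have been shared between copies, and their levels are uncertain.

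The naive pluripotency list had 25 genes, and all 25 were tested and called higher, with 25 of 25 above both d16 libraries (median log2 fold change 7.85, or 6.51 with the 6 genes at 0 in both d16 libraries set to their lower bound). Their summed level was 6763, 6407, 7609 and 7581 CPM in the early reverted libraries and 276 and 248 CPM at d16. Jam2 was the most abundant of the list at d16 and Dppa5a after expansion. The transcription factor Tfcp2l1 was at 779, 717, 735 and 851 CPM in early reverted cells against 3.09 and 4.84 CPM (log2 fold change 7.56, SE 0.21, edgeR adjusted p = 2.13e-07). Klf2, whose protein is stabilised when MEK is inhibited, was at 229.9, 203, 328 and 273 CPM against 16.4 and 8.93 CPM (log2 fold change 4.30, SE 0.27, edgeR adjusted p = 3.62e-06). Both genes were high in all 4 early reverted libraries and low in both d16 libraries. The related factor Klf4 differed from these, for it was already at 57.1 and 51.4 CPM at d16 and only rose to 120.1, 116, 124 and 126 CPM (log2 fold change 1.11, SE 0.13, edgeR adjusted p = 0.000107), still without overlap, and was at 0.747 CPM in the primed library. Dppa3, whose product shields the maternal genome from demethylation, was at 49.9, 48.4, 23.6 and 13.1 CPM against 0 and 0 CPM, at least 30.2-fold higher (edgeR adjusted p = 0.000867), with both 2p libraries above both 3p libraries. Tbx3, Nr5a2, Prdm14, Dppa2, Dppa4 and Fbxo15 were also called, with 5 or fewer CPM in both d16 libraries.

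General pluripotency genes were mostly higher after expansion than at d16. Of 15 genes in this list, 14 were called higher and 1 lower (median 5.003, or 4.21 with 3 genes at their bound). The RNA-binding protein gene Lin28a was at 306, 335, 364 and 389.8 CPM in early reverted cells, at 3.09 and 4.10 CPM at d16 and at 329 CPM in the primed library (log2 fold change 6.54, SE 0.21, edgeR adjusted p = 2.89e-07). L1td1, another RNA-binding factor, was at 494, 494, 576 and 675 CPM against 0.309 and 1.12 CPM, 826-fold (95% counting interval 322 to 3031, edgeR adjusted p = 3.87e-07) higher. Both genes separated the groups in every library. Sox2 was also higher in all 4 early reverted libraries but differed less, since it was at 123 and 97.9 CPM at d16, above the 59.8 CPM of the primed library, and at 343, 321, 291 and 283 CPM in early reverted cells (log2 fold change 1.44, SE 0.15, edgeR adjusted p = 5.13e-05).

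The formative and primed list gave no single direction. Of 18 genes 15 were tested, with 7 higher, 5 lower and a median of 0.26, which ran from -0.05 to 1.21 over the alternatives tried. Dnmt3b, a de novo DNA methyltransferase, rose from 12.04 and 18.6 CPM to 553, 570.3, 439 and 529 CPM (log2 fold change 5.06, SE 0.21, edgeR adjusted p = 5.72e-07), above the 242 CPM of the primed library. Otx2, the factor that drives exit from the naive state, was at 12.6, 19.07, 8.76 and 5.11 CPM against 63.3 and 78.2 CPM at d16 (log2 fold change -2.67, SE 0.37, edgeR adjusted p = 0.000258), with 84.8 CPM in the primed library. Dnmt3b was therefore higher and Otx2 lower in all 4 early reverted libraries than in both d16 libraries. Fgf5, the classical primed marker, was at 0.616, 3.05, 0.381 and 1.82 CPM and 0.618 and 1.49 CPM, near the floor in both groups and untested, against 34.0 CPM in the primed library. Car14 and Slc39a8, both membrane proteins high in the primed library (249.5 and 253 CPM), held 88.6 and 39.1 CPM and 24.4 and 19.7 CPM at d16 and no more than 2.15 and 1.23 CPM in any early reverted library.

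**Figure D2:**
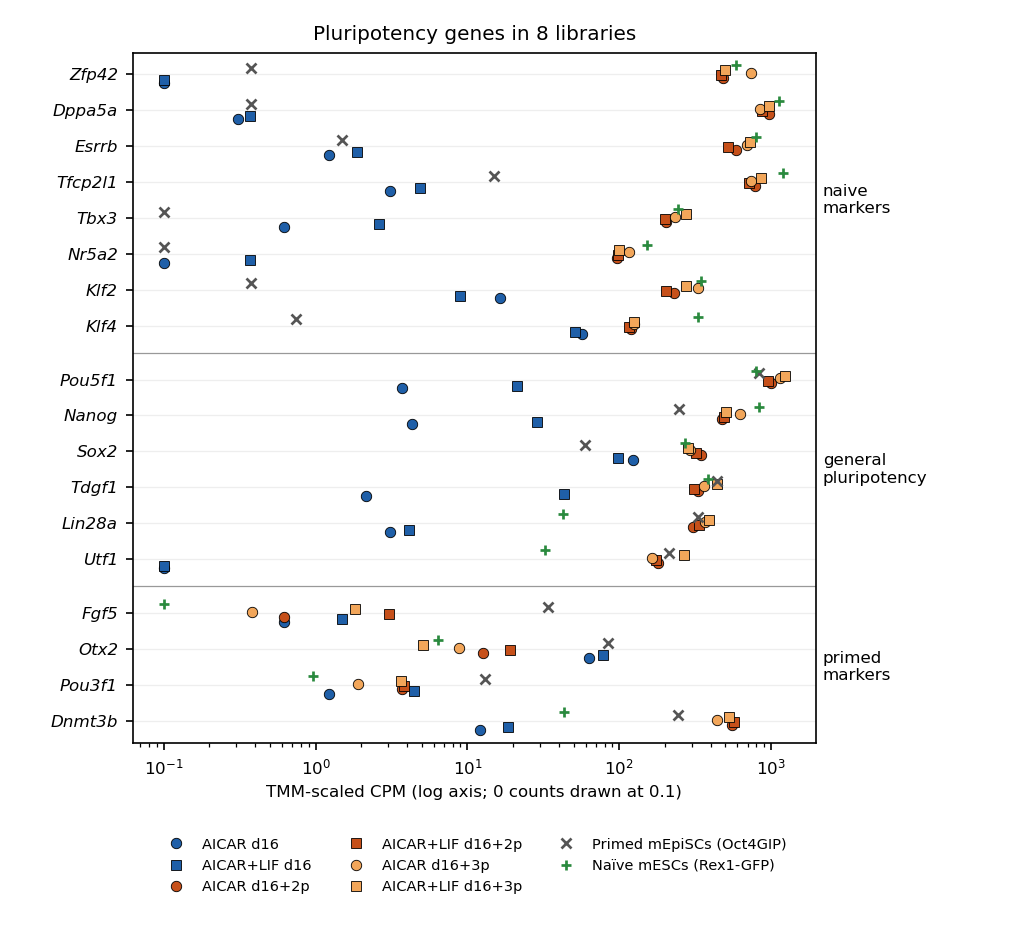
Levels of pluripotency genes in TMM-scaled CPM (log axis, 0 counts drawn at 0.1), 1 symbol per library for the early reverted and d16 libraries, with the primed and naive libraries as crosses. Zfp42 and Utf1 had 0 counts at d16, and Esrrb stood at 1.24 and 1.86 CPM there against 521 CPM or more in early reverted cells, whereas Klf4 and Sox2 were well above the floor in both groups.

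Of the 12 genes with the largest falls, picked by the same rule, 6 encoded proteins of the extracellular matrix. Gfap (chr11:102887336-102900912 on the minus strand, GRCm38), the intermediate filament of astrocytes, was at 0.616, 0, 0 and 0.365 CPM in early reverted cells, which is 3 counts in all, and at 2395 and 2266 CPM at d16. Every early reverted library was under the floor, a level lower by 8750.3-fold (95% counting interval 2994 to 42436, edgeR adjusted p = 1.1e-07). Igf2, a growth factor gene that is imprinted (chr7:142650766-142666816 on the minus strand), was at 5.54, 4.58, 3.05 and 0.729 CPM against 6862 and 7633 CPM (log2 fold change -11.04, SE 0.34, edgeR adjusted p = 2.66e-07). Eln, which encodes elastin, was at 1.23, 0.763, 1.14 and 0.729 CPM against 988 and 1204 CPM (log2 fold change -10.11, SE 0.19, edgeR adjusted p = 5.96e-08). For Igf2 and Eln too, the highest early reverted library stayed far under the lower d16 library. The rest of the 12 were Ptn, a secreted growth factor gene, Igfbp5, which binds insulin-like growth factors, the matrix genes Col8a1, Col3a1, Col6a1, Postn and Bgn, Pla2g7, a secreted phospholipase gene, and Cdh11, a mesenchymal cadherin gene. Bgn was lower by 870.0-fold (95% counting interval 458 to 1904, edgeR adjusted p = 1.48e-07) and Col6a1 by 737-fold (95% counting interval 388 to 1613, edgeR adjusted p = 2.88e-07). The fitted log2 fold changes of the other 7 ran from -10.78 for Ptn to -9.21 for Cdh11, and none of these 9 genes exceeded 12.9 CPM in any early reverted library.

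High levels of these 12 genes were not particular to AICAR. All 12 were above the primed library in both day 16 cultures without AICAR, where the lowest value was 83.5 CPM, for Cdh11 in basal medium. Gfap was at 1.12 CPM in the primed library, at 0 and 1.92 CPM at day 8 in the cultures with AICAR alone and with LIF, and at 4439.9 and 13172 CPM at day 16 in basal medium and 2iL without AICAR. Eln was at 8.22 and 1.92 CPM in the AICAR cultures at day 8 and at 594 and 547 CPM at day 16 without AICAR. Both were thus low at day 8 and high in all 4 day 16 cultures, with or without AICAR. Igf2 was already at 855 and 1173 CPM at day 8 in the AICAR cultures, and at 786 and 12989.8 CPM at day 16 in basal medium and 2iL without AICAR. Postn was at 809 and 682 CPM at day 8 with AICAR against 599.7 and 1052 CPM at d16, so it was not higher at d16 with AICAR alone. The day 8 AICAR libraries were shallow, with totals of 956357 and 438771, these levels entered no test, and RNA of the feeder layer in them was not tested.

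Fibroblast markers fell as a whole. Of the 30 genes in the fibroblast and feeder list, 29 were tested, 29 were called lower, and 30 of 30 were below both d16 libraries (median -7.41, or -6.43 with the gene at 0 set to its bound). The summed level was 2439, 2285, 1881 and 2490.2 CPM in the early reverted libraries and 27929 and 33854 CPM at d16. Col1a1 was the most abundant marker at d16, and Fn1, the fibronectin gene, in early reverted cells. Fn1 stood at 1676, 1515, 1459 and 2011 CPM against 3467 and 4542 CPM, and the naive library, which has no fibroblast layer in its label, held 1942 CPM. Fap, a fibroblast surface protease, was at 0 in all 4 early reverted libraries and at 96.4 and 35.7 CPM at d16, at least 57.7-fold lower (edgeR adjusted p = 1.99e-05). The small proteoglycan gene Dcn was at 0.308, 0.381, 0 and 0 CPM against 159 and 47.3 CPM, 609-fold (95% counting interval 168 to 5038, edgeR adjusted p = 7.95e-07) lower. Both defining markers were absent or at 1 count after expansion and clear in both d16 libraries. Feeder fibroblasts and fibroblast-like cells formed from mEpiSCs cannot be told apart by these genes, and the part of feeder RNA in the d16 levels was not tested.

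Few reads fell on the Y-linked genes Ddx3y, Eif2s3y and Uty in either group, and their source was not tested. Ddx3y, an RNA helicase gene, was at 0, 0, 0 and 0 CPM in early reverted cells and at 0.618 and 4.47 CPM at d16, which is 2 and 12 counts. Eif2s3y, a translation factor gene, was at 0.616, 0, 0.381 and 0.729 CPM against 0 and 3.72 CPM. Of the 4 Y-linked genes, Ddx3y and Eif2s3y were clear of the floor only in AICAR+LIF d16, and the sex of the feeder embryos is not given. Uty, at 0.923, 1.14, 3.05 and 1.09 CPM and 0.926 and 2.98 CPM, overlapped between the groups, and like Ddx3y and Eif2s3y it did not pass the filter on low counts. Kdm5d was called higher (16.9, 13.0, 6.48 and 10.2 CPM against 2.78 and 4.10 CPM, log2 fold change 1.73), but not without AICAR d16 (log2 fold change 1.44), and all 4 genes have related copies on the X chromosome, so their reads are uncertain.

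Mesenchymal and contractile genes moved with the fibroblast markers. In the list of mesenchymal transition factors, 15 of 16 tested genes were lower and none higher (median -3.86), and 12 of 13 contractile genes were lower and 1 higher (median -3.54). Vim, the intermediate filament vimentin, was the most abundant of the former in both groups, at 408, 406, 397 and 436 CPM against 2311 and 2685 CPM (log2 fold change -2.65, SE 0.10, edgeR adjusted p = 4.3e-07). Zeb2, a repressor of E-cadherin, was at 3.39, 3.05, 3.81 and 0.365 CPM against 107 and 103 CPM (log2 fold change -5.36, SE 0.35, edgeR adjusted p = 4.32e-06). Vim therefore kept a sizeable level after expansion, whereas Zeb2 came close to the floor, and neither overlapped between the groups. Cdh2, the N-cadherin gene, was at 12.9, 20.6, 6.48 and 12.03 CPM against 164 and 244 CPM (log2 fold change -4.02, SE 0.24, edgeR adjusted p = 3.27e-06). Cdh1, the E-cadherin gene, went the other way, at 425, 391, 719 and 381 CPM against 22.2 and 10.1 CPM (log2 fold change 4.86, SE 0.29, edgeR adjusted p = 3e-06). The cadherins thus moved in opposite directions in all 4 early reverted libraries. Of 17 tested genes of epithelial junctions 12 were higher and 4 lower (median 1.99), among them Epcam, at 95.1, 75.9, 96.4 and 76.2 CPM against 4.32 and 10.8 CPM.

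Neural genes were present at d16 and mostly lost afterwards. Of 14 tested neural genes, 12 were lower and 1 higher (median -4.05), with a summed level of 425, 414, 513 and 482 CPM in early reverted cells and 3699.9 and 3413 CPM at d16. Over the alternatives tried, the median ran from -4.50 to -1.30, with 2 to 12 genes lower. Gfap led the list at d16 and Stmn2 in early reverted cells. Fabp7, a fatty acid carrier of radial glia, was at 0.308, 0, 0.762 and 0 CPM against 344 and 164 CPM, 983-fold (95% counting interval 336 to 4769.5, edgeR adjusted p = 2.4e-07) lower. Dcx, a microtubule protein of migrating neurons, was at 0.308, 0.381, 0 and 0 CPM against 99.7 and 79.7 CPM, 509-fold (95% counting interval 140.3 to 4216, edgeR adjusted p = 6.72e-07) lower. These glial and neuronal markers were present in both d16 libraries and at or under the floor afterwards. Map2, which binds dendritic microtubules, was at 5.85, 2.29, 5.33 and 2.55 CPM against 222 and 238 CPM (log2 fold change -5.89, SE 0.24, edgeR adjusted p = 5.63e-07). The exceptions were Stmn2, a tubulin-binding protein gene that was higher in early reverted cells at 230.3, 233, 275 and 345 CPM against 39.5 and 46.5 CPM (log2 fold change 2.60, SE 0.19, edgeR adjusted p = 9.05e-06), and Tubb3, a neuronal tubulin gene that overlapped between the groups at 134, 127, 163 and 74.8 CPM and 139.6 and 111 CPM (log2 fold change -0.07, SE 0.22, edgeR adjusted p = 0.787). The sign for Tubb3 turned without AICAR+LIF d16+3p (0.11) and without AICAR+LIF d16 (0.0281). Stmn2 was also high in the primed and naive libraries (152 and 150.2 CPM), neither of them neural.

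Other lineages were sparser. Of 8 tested genes of mesendoderm and endoderm, 5 were lower and 1 higher (median -2.78). Ttr, a carrier protein of visceral endoderm and choroid plexus, was at 0.308, 0, 1.91 and 0 CPM against 379 and 121 CPM, and T, the mesoderm factor brachyury, at 4.93, 3.43, 2.67 and 1.82 CPM against 45.4 and 38.3 CPM (log2 fold change -3.73, SE 0.29, edgeR adjusted p = 1.09e-05). Both were lower in every early reverted library. The endoderm genes Foxa2, Sox17 and Gata4 did not pass the filter, and no library of the 6 held more than 4.93 CPM of any of them. Hnf4a was the gene called higher, at 14.5, 11.4, 9.14 and 6.199 CPM against 0 and 0.745 CPM, 31.1-fold (95% counting interval 8.42 to 259.9, edgeR adjusted p = 0.000866) higher. For endothelial and blood genes, 2 of 5 tested were lower and none higher (median -1.16). Cdh5, the endothelial cadherin gene, was at 155 CPM in AICAR d16 and at 3.35 CPM in AICAR+LIF d16, so the d16 pair stood far apart, and Lyz2, the lysozyme gene of macrophages, was at 44.8 and 73.3 CPM at d16 and at 0 in all 4 early reverted libraries, at least 51.6-fold lower (edgeR adjusted p = 2.3e-05). Of 5 tested trophoblast genes 2 were higher and 1 lower (median 1.95), of which Tfap2c, at 79.7, 74.8, 65.2 and 67.1 CPM against 0.618 and 1.49 CPM, is also a factor of naive cells. The signs of these last medians were not stable, for they ran from -3.30 to 0.08 and from -1.49 to 3.02 over the alternatives tried.

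**Figure D3:**
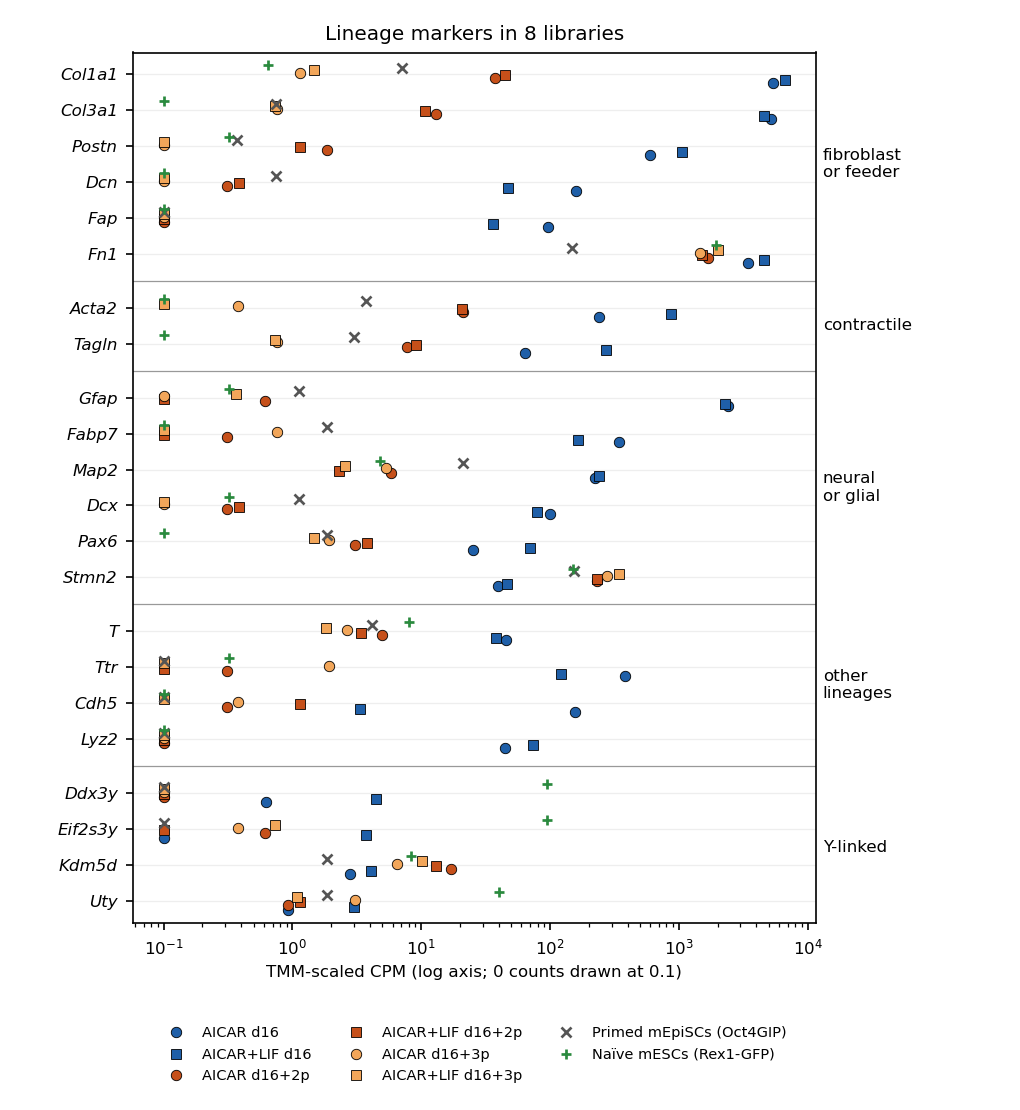
Levels of lineage genes in TMM-scaled CPM (log axis, 0 counts drawn at 0.1), drawn as in the plot of pluripotency genes. Gfap at d16 stood at 2395 and 2266 CPM and under 1 CPM in early reverted cells, and Col1a1 showed a gap between the 2p libraries (37.6 and 45.0 CPM) and the 3p libraries (1.14 and 1.46 CPM).

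Germline genes came on as a group. Of 27 genes listed, 26 were in the count table. Tested or not, 24 of the 26 lay above both d16 libraries, where 6568 of all 15609 genes tested did. Of the 26, 21 were tested, of which 20 were higher and none lower. The median was 7.07 as fitted and 3.89 with 14 genes at their lower bound, since 18 of the 26 had no count in either d16 library. It ran from 0.989 to 7.92 over the alternatives tried, with 1 to 20 genes higher. A gene silent at d16 could pass the filter only by being expressed in early reverted cells, so the count of 20 is a description. Dazl, which encodes an RNA-binding protein of germ cells, was at 129.9, 140.4, 77.7 and 98.1 CPM in early reverted cells and at 0 and 0 CPM at d16. Both 2p libraries were above both 3p libraries, and their mean was at least 99.9-fold higher (edgeR adjusted p = 1.27e-05). Hormad1, which acts on chromosome axes in meiosis, was at 72.3, 98.0, 65.2 and 83.9 CPM against 0 and 0 CPM, at least 71.5-fold higher (edgeR adjusted p = 2.22e-06). Sycp3, a component of the same axes, was at 10.8, 9.54, 3.05 and 4.74 CPM against 0 and 0 CPM, at least 6.29-fold higher (edgeR adjusted p = 0.00286). Both axis genes were silent at d16 and above the floor in all 4 early reverted libraries. Stk31, a kinase gene of male germ cells, was at 77.6, 76.7, 64.0 and 22.6 CPM against 0 and 0 CPM, at least 53.9-fold higher (edgeR adjusted p = 0.000233), with AICAR+LIF d16+3p the lowest. Mael, which guards the germline against transposons, was at 6.16, 6.49, 11.8 and 20.4 CPM against 0 and 0 CPM, at least 10.0-fold higher (edgeR adjusted p = 0.00127), with that same library the highest. Rpl10l, a testis copy of a ribosomal protein gene, was at 97.6, 85.8, 72.8 and 73.3 CPM against 0 and 0 CPM, at least 73.8-fold higher (edgeR adjusted p = 3.75e-06). Ddx4, the helicase known as Vasa, was not silent at d16, at 16.9, 11.8, 14.5 and 16.8 CPM against 3.09 and 2.61 CPM (log2 fold change 2.33, SE 0.33, edgeR adjusted p = 0.000315), and reached 16.4 CPM in the primed library. Dazl, Hormad1, Stk31, Rpl10l and Mael had no count in the primed library, and in the naive library they held 89.7, 23.1, 23.4, 116 and 3.52 CPM.

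Promoters of germline genes are shown because these genes moved together and because the E-box CACGTG, a palindrome and so the same on both strands, is known from promoters of this class. The windows run from 250 bases before to 50 bases after the start, from RefSeq on GRCm38.p6, and 25 of the 27 listed genes had one. CACGTG was present in 12 of these 25 (48%), against 2187 of 27025 genes with a promoter (8.09%) and 1232 of 10643 tested genes (11.6%). By direction, it was in 13.6% of genes called higher, 9.58% of genes called lower and 12.2% of genes not called. Naive pluripotency genes held it in 3 of 14 promoters (21.4%), DNA replication genes in 5 of 30 (16.7%), general pluripotency genes in 1 of 11 (9.09%) and fibroblast markers in 0 of 17. The E2F-like motif GGCGGGAA, searched on both strands, was in 4 of the 25 germline promoters (16%), in 2 of 11 promoters of general pluripotency genes (18.2%), in 5 of 30 of DNA replication genes (16.7%), in 0 of 14 of naive pluripotency genes and 0 of 17 of fibroblast markers, and in 4.65% of tested genes and 2.52% of all genes. Hormad1 (chr3:95559429-95559728, plus strand) and Sycp3 (chr10:88459337-88459636, plus strand) each held CACGTG 2 times, and Stk31 (chr6:49395354-49395653, plus strand) and Mael (chr1:166238695-166238994, minus strand) 1 time each. Dazl (chr17:50293571-50293870, minus strand), the most abundant of the list in early reverted cells, held none in this window. Hormad1 and Stk31 each had 2 windows with the same number of matches, of which 1 is shown. Capitals mark CACGTG.
Hormad1: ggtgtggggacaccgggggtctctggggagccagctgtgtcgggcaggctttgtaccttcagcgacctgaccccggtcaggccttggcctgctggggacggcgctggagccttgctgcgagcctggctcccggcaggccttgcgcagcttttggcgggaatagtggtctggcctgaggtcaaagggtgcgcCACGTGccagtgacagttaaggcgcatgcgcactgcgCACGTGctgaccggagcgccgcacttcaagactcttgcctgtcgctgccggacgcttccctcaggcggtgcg
Sycp3: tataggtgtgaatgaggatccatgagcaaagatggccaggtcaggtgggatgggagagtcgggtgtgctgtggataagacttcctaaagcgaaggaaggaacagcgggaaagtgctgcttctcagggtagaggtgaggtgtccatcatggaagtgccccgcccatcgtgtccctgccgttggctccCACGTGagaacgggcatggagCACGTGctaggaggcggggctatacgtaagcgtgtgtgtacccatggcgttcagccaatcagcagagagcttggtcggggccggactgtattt
Stk31: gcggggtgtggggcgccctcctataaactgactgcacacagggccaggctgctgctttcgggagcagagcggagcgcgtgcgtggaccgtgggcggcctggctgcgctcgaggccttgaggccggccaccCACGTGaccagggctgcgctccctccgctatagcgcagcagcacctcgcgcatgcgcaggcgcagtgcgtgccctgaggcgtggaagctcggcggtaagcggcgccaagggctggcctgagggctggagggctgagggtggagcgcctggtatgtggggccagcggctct
Mael: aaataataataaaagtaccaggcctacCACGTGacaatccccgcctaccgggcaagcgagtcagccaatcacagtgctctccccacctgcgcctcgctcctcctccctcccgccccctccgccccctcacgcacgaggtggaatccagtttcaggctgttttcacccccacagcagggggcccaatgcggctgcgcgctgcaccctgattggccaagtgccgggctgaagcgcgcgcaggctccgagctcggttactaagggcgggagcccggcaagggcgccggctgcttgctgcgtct
Dazl: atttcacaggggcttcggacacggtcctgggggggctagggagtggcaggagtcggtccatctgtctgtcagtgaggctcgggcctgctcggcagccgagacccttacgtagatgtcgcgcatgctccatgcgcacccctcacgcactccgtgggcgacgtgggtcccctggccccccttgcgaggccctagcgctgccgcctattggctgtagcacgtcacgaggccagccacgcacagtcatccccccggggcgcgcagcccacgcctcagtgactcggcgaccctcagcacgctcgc
A match is a description of letters and was not tested against the change in expression.

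Genes for the DNA methylation machinery changed in opposite directions by family member. Of 14 genes, 8 were higher and 3 lower (median 1.78). Among the writers, the de novo enzyme Dnmt3a was at 109.6, 117, 104 and 97.4 CPM against 264 and 202 CPM (log2 fold change -1.17, SE 0.15, edgeR adjusted p = 0.000151), opposite to Dnmt3b and Dnmt3l above. The maintenance pair Dnmt1 and Uhrf1 were both higher, Dnmt1 at 479, 455, 519 and 577 CPM against 156 and 141 CPM (log2 fold change 1.72, SE 0.14, edgeR adjusted p = 1.4e-05), and Uhrf1 at 689, 636, 759.7 and 941 CPM against 77.5 and 76.3 CPM (log2 fold change 3.24, SE 0.19, edgeR adjusted p = 2.55e-06). No early reverted value of these genes overlapped a d16 value. Among the oxidases that start demethylation, Tet1 was at 617, 581, 465 and 702 CPM against 58.7 and 46.2 CPM (log2 fold change 3.43, SE 0.22, edgeR adjusted p = 3.77e-06). Tet3 ran against it, at 12.9, 14.1, 14.5 and 10.6 CPM against 147 and 128 CPM (log2 fold change -3.45, SE 0.16, edgeR adjusted p = 1e-06). All 4 early reverted libraries were thus above d16 for Tet1 and below it for Tet3. Zfp57, which protects methylated imprints, was at 365, 342, 397 and 428 CPM against 21.6 and 25.7 CPM (log2 fold change 3.97, SE 0.17, edgeR adjusted p = 6.51e-07).

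Xist and its antisense partner moved in opposite directions. Xist (chrX:103460366-103483254 on the minus strand, GRCm38), the noncoding RNA that silences 1 X chromosome in female cells, was at 15.1, 10.7, 2.67 and 5.47 CPM in early reverted cells and at 478 and 451 CPM at d16, against 613 CPM in the primed library and 0.961 CPM in the naive library (log2 fold change -5.79, SE 0.38, edgeR adjusted p = 4.92e-06). Its antisense gene Tsix was at 13.5, 11.8, 15.2 and 4.74 CPM against 0 and 0 CPM, at least 10.2-fold higher (edgeR adjusted p = 0.000405). The naive library held reads of Y-linked genes, so its low Xist may not stand for a female line. Both d16 libraries were Xist-high without Tsix, and all 4 early reverted libraries were Xist-low with Tsix, the 2p libraries keeping more Xist than the 3p libraries. Ftx, a noncoding neighbour of Xist, rose from 9.26 and 10.1 CPM to 64.95, 52.6, 64.8 and 54.3 CPM (log2 fold change 2.56, SE 0.20, edgeR adjusted p = 1.01e-05), and of 6 genes in the list 3 were higher and 2 lower (median 0.32). The X chromosome as a whole did not follow. Of 602 tested X-linked genes 231 were higher and 225 lower, near the 37.0% and 37.4% of all tested genes. Their median was 0.07 against 0.01 for 14763 autosomal genes. Among genes with a mean of at least 10 CPM over the 6 libraries the order was the other way, 0.05 for X-linked and 0.11 for autosomal genes. X-linked genes took 3.08, 3.09, 2.93 and 2.95% of all reads in early reverted libraries and 3.25 and 3.41% at d16. Medians of single chromosomes lay between -0.35 for chromosome 15 and 0.20 for chromosome 8. Whether 1 or both X chromosomes were active was not tested, since that needs allelic reads.

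**Figure D4:**
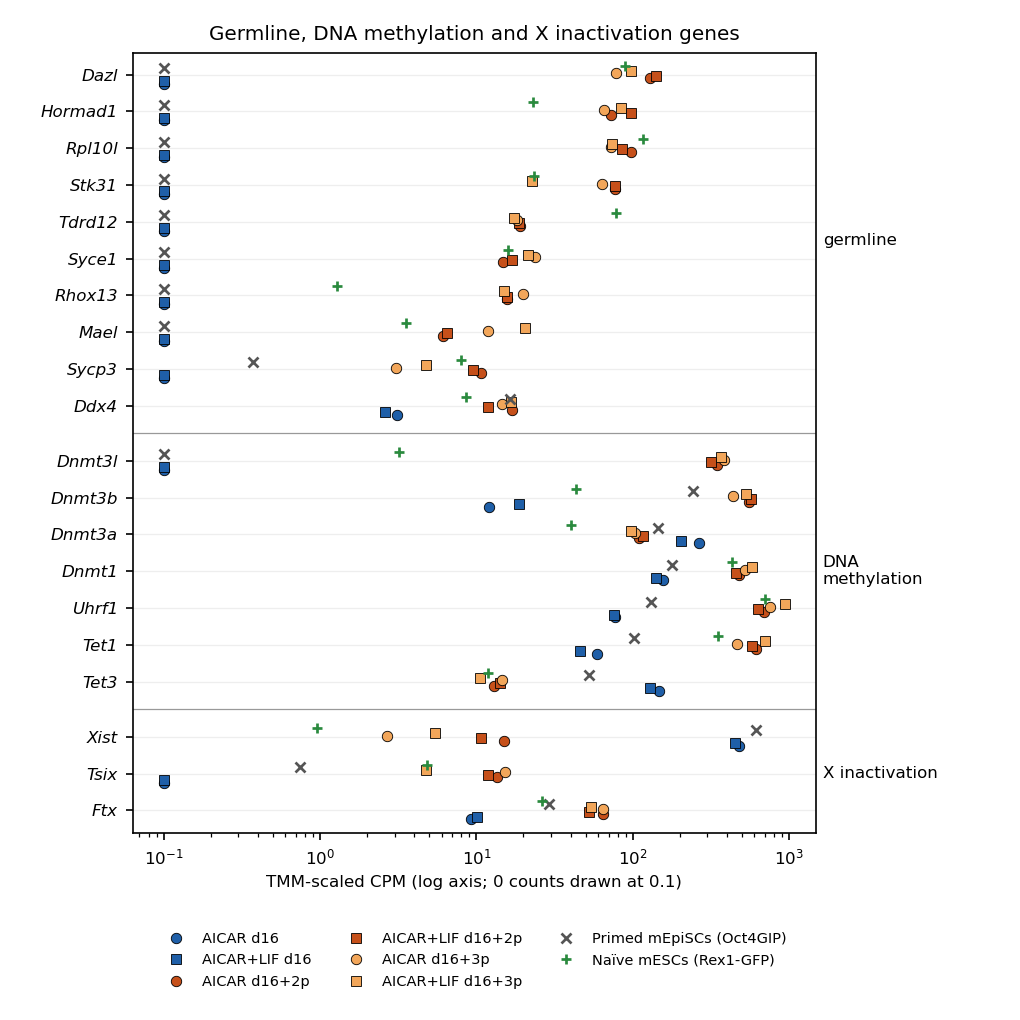
Levels of germline, DNA methylation and X inactivation genes in TMM-scaled CPM (log axis, 0 counts drawn at 0.1), drawn as in the plot of pluripotency genes. Dazl, Hormad1, Stk31 and Dnmt3l had 0 counts at d16, Dnmt3l reached 318 to 384 CPM in early reverted cells against 3.20 CPM in the naive library, and Xist fell from 478 and 451 CPM at d16 to 15.1 CPM or less.

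Targets of the pathways that 2iL acts on did not move as blocks. Of 17 tested genes of ERK feedback and targets, 6 were higher and 9 lower (median -1.002). Of all tested genes, 37.0% were higher and 37.4% lower. The immediate early factor Egr1 was at 1.54, 2.29, 38.9 and 22.2 CPM in early reverted cells and at 465 and 529 CPM at d16 (log2 fold change -5.05, SE 0.75, edgeR adjusted p = 0.000396), and Fos at 1.85, 0.763, 6.48 and 8.75 CPM against 403 and 506 CPM (log2 fold change -6.73, SE 0.43, edgeR adjusted p = 3.86e-06). Both were far below d16 in all 4 libraries, with the 2p libraries lower than the 3p libraries. Other ERK targets were higher, including the ETS factor Etv5 at 436, 421, 447 and 489 CPM against 13.3 and 47.3 CPM (log2 fold change 3.95, SE 0.37, edgeR adjusted p = 3e-05) and the feedback inhibitor Spry4 at 27.7, 29.8, 48.8 and 46.3 CPM against 7.10 and 11.9 CPM (log2 fold change 1.97, SE 0.35, edgeR adjusted p = 0.00103). The log2 fold change of Etv5 ran from 3.22 to 4.99 over the alternatives tried. Among Wnt targets and TCF factors 6 of 16 were higher and 7 lower (median 0.39), near the shares of all tested genes. Axin2, a feedback inhibitor induced by beta-catenin, was lower, at 72.0, 46.5, 49.5 and 30.3 CPM against 116 and 109 CPM (log2 fold change -1.27, SE 0.23, edgeR adjusted p = 0.00127), and Cdx1, a caudal factor, was at 18.2, 11.4, 12.2 and 10.6 CPM against 0 and 0 CPM, at least 11.7-fold higher (edgeR adjusted p = 8.63e-05). The receptor Lgr5 was at 0 in all 4 early reverted libraries and at 9.88 and 23.5 CPM at d16. Over the alternatives tried, the ERK median ran from -1.19 to 0.97 and the Wnt median from -0.56 to 0.63, so neither list had a stable direction.

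LIF pathway genes moved both ways in 2iL, which contains LIF. Of 14 genes 4 were higher and 7 lower, where 37.0% of all tested genes were higher and 37.4% lower (median -1.01). The shared receptor chain Il6st was at 153, 138, 106 and 115 CPM against 419 and 582 CPM (log2 fold change -2.00, SE 0.18, edgeR adjusted p = 2.6e-05), and Stat3, the transcription factor, at 113, 87.7, 99.8 and 140.4 CPM against 181 and 287 CPM (log2 fold change -1.11, SE 0.20, edgeR adjusted p = 0.0011). Pim1, a kinase gene, was higher at 86.2, 74.0, 126 and 83.9 CPM against 6.79 and 14.1 CPM (log2 fold change 3.10, SE 0.35, edgeR adjusted p = 7.7e-05). None of these 3 overlapped between the groups. Receptors and ligands of the TGF-beta and FGF families moved both ways. In the TGF-beta family 6 of 24 were higher and 15 lower (median -2.17). The ligand gene Nodal was at 97.0, 93.5, 98.3 and 111 CPM against 0.926 and 8.19 CPM (log2 fold change 4.50, SE 0.45, edgeR adjusted p = 4.15e-05), while the receptor gene Tgfbr2 was at 1.54, 1.91, 1.52 and 1.46 CPM against 211 and 224 CPM (log2 fold change -7.10, SE 0.18, edgeR adjusted p = 1.45e-07). Id2, a target of BMP signals, was at 4.62, 4.96, 1.52 and 1.09 CPM against 299 and 291 CPM (log2 fold change -6.60, SE 0.32, edgeR adjusted p = 1.14e-06). Nodal was thus gained and Tgfbr2 and Id2 were nearly lost in every early reverted library. Of 11 tested FGF ligands and receptors 3 were higher and 8 lower (median -3.10), with the ligand Fgf4 at 143, 137, 177 and 149.9 CPM against 0.309 and 1.12 CPM, 224-fold (95% counting interval 87.4 to 823, edgeR adjusted p = 6.91e-07) higher, and the ligand Fgf2 at 0, 0, 0.381 and 0.365 CPM against 24.7 and 41.7 CPM, 182-fold (95% counting interval 49.7 to 1514, edgeR adjusted p = 5.15e-06) lower.

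Most genes of the kinases that AICAR acts through were not called. Of 17 tested genes of the AMPK and p38 list, 2 were higher, 5 lower and 10 not called (median -0.22). The catalytic subunit gene Prkaa1 was at 40.3, 41.2, 49.5 and 54.3 CPM and 45.1 and 43.6 CPM (log2 fold change 0.01, SE 0.18, edgeR adjusted p = 0.974), and Prkaa2 at 9.23, 16.0, 24.4 and 16.0 CPM and 23.5 and 30.9 CPM (log2 fold change -0.78, SE 0.34, edgeR adjusted p = 0.0654). Both overlapped between the groups and neither was called, although Prkaa2 was called under 7 of 18 alternatives (log2 fold change from -1.14 to -0.48 over all 18), and the sign for Prkaa1 turned without AICAR d16+3p (-0.0348), AICAR+LIF d16+3p (-0.0625) or AICAR+LIF d16 (-0.0692). The p38 gene Mapk14 was higher at 139, 114, 143 and 146 CPM against 61.1 and 69.2 CPM (log2 fold change 1.002, SE 0.15, edgeR adjusted p = 0.000454), and the regulatory subunit gene Prkag2 lower at 8.93, 15.3, 9.14 and 10.6 CPM against 64.2 and 41.7 CPM (log2 fold change -2.33, SE 0.28, edgeR adjusted p = 0.000121). Ppargc1a, a coactivator of mitochondrial genes downstream of AMPK, was at 0.308, 0.381, 0 and 0 CPM against 21.9 and 16.0 CPM, 108-fold (95% counting interval 29.3 to 904, edgeR adjusted p = 1.62e-05) lower. Transcript levels do not show the activity of these kinases.

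Most genes that make purines and handle AICAR were higher. Of 20 tested, 15 were higher and 1 lower (median 1.14). Atic, whose enzyme consumes the phosphorylated form of AICAR in purine synthesis, was at 257, 252, 321 and 291 CPM in early reverted cells and 76.6 and 73.3 CPM at d16 (log2 fold change 1.85, SE 0.15, edgeR adjusted p = 1.25e-05). Ppat, which encodes the first enzyme of the route, was at 172, 175, 218 and 178 CPM against 17.9 and 15.6 CPM (log2 fold change 3.41, SE 0.17, edgeR adjusted p = 1.44e-06). The nucleoside transporter gene Slc29a1 was at 204, 198, 167 and 233 CPM against 20.1 and 11.2 CPM (log2 fold change 3.61, SE 0.26, edgeR adjusted p = 8.14e-06). All 3 separated the groups, while Adk, whose kinase phosphorylates AICAR, overlapped at 40.0, 45.0, 44.6 and 37.9 CPM and 41.4 and 27.9 CPM (log2 fold change 0.23, SE 0.20, edgeR adjusted p = 0.317), with a sign that turned without AICAR+LIF d16 (-0.0309). Among 19 genes of threonine, glycine and one-carbon metabolism 16 were higher and 3 lower (median 1.41). Tdh, the threonine dehydrogenase of naive cells, was at 659, 616, 706 and 762 CPM against 1.85 and 0 CPM (log2 fold change 9.30, SE 0.42, edgeR adjusted p = 8.16e-07), and Phgdh, the entry enzyme of serine synthesis, was lower at 31.7, 36.6, 37.3 and 30.3 CPM against 276 and 111 CPM (log2 fold change -2.47, SE 0.26, edgeR adjusted p = 5.72e-05). Tdh had 6 and 0 counts at d16, and its log2 fold change ran from 8.43 to 13.9 over the alternatives tried.

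Replication and division genes rose nearly without exception. Of 37 DNA replication genes 36 were higher and none lower (median 2.13), and all 21 mitosis genes were higher (median 1.60). The summed level of the replication genes was 6502, 6426, 8079.8 and 7717 CPM in early reverted cells and 1792 and 1634 CPM at d16. Mcm2, a subunit of the replicative helicase, was at 534, 522, 649 and 634 CPM against 123 and 118 CPM (log2 fold change 2.23, SE 0.14, edgeR adjusted p = 4.39e-06). Orc1, a subunit of the origin recognition complex, was at 129.6, 124, 161 and 148 CPM against 6.79 and 7.82 CPM (log2 fold change 4.21, SE 0.21, edgeR adjusted p = 1.23e-06). Mki67, the widely used proliferation marker, moved far less, at 269, 273, 258 and 257 CPM against 223 and 165 CPM (log2 fold change 0.40), and it was not called under 8 of 18 alternatives (log2 fold change from 0.18 to 0.64 over all 18). All 3 were above both d16 libraries in all 4 early reverted libraries. CDK inhibitors and p53 targets had 7 higher and 6 lower of 23 (median 0.17, from -0.10 to 0.35 over the alternatives tried). Both counts were under the shares of all tested genes, 37.0% higher and 37.4% lower. Cyclin genes moved both ways, with Ccnd2 at 8.31, 6.87, 1.14 and 1.82 CPM against 312 and 453 CPM (log2 fold change -6.37, SE 0.42, edgeR adjusted p = 4.93e-06) and Ccne1 at 109, 133, 151 and 157 CPM against 25.0 and 22.7 CPM (log2 fold change 2.46, SE 0.20, edgeR adjusted p = 1.34e-05). Cdkn2b, an inhibitor of the kinases that pair with D cyclins, was at 1.23, 1.53, 1.52 and 1.46 CPM against 25.6 and 43.2 CPM (log2 fold change -4.57, SE 0.28, edgeR adjusted p = 3.47e-06), whereas Cdkn1a, a p53 target, overlapped at 258, 237, 183 and 178 CPM and 231 and 330.2 CPM and was called under 4 of 18 alternatives (log2 fold change from -0.72 to -0.12 over all 18).

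Genes of glycolysis moved both ways, and most genes of cholesterol synthesis were lower. Of 26 genes of glycolysis and pyruvate fate, 16 were higher and 8 lower (median 0.71). Pkm, the pyruvate kinase gene, was at 2266, 2337, 2219 and 2411 CPM against 505 and 533 CPM (log2 fold change 2.10, SE 0.11, edgeR adjusted p = 1.31e-06), and the glucose transporter gene Slc2a3 at 995, 958, 815 and 689 CPM against 46.9 and 126 CPM (log2 fold change 3.35, SE 0.37, edgeR adjusted p = 7.57e-05). Both were higher in each early reverted library than in either d16 library. The log2 fold change of Slc2a3 ran from 2.67 to 4.21 over the alternatives tried. Of 13 mitochondrially encoded genes 0 were higher and 4 lower (median -0.24, with 0 to 1 higher and 1 to 10 lower over the alternatives tried), and they took between 1.98 and 2.47% of reads in early reverted libraries against 2.40 and 2.75% at d16. Cholesterol synthesis genes had 16 lower and 0 higher of 22 (median -1.09). Hmgcs1, an early enzyme of that pathway, was at 203, 224, 229.8 and 255 CPM against 773 and 651 CPM (log2 fold change -1.70, SE 0.13, edgeR adjusted p = 9.3e-06). It was lower in all 4 early reverted libraries than in both d16 libraries.

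Stress genes moved both ways, and immune genes were mostly lower. Of 16 tested genes of the integrated stress response 5 were higher and 8 lower (median -0.79, from -0.94 to -0.10 over the alternatives tried, with 4 to 9 genes lower). Slc7a11, the cystine transporter gene, was at 3.39, 0.381, 3.05 and 1.82 CPM against 411 and 109.8 CPM (log2 fold change -6.91, SE 0.23, edgeR adjusted p = 3.12e-07), while Asns, which encodes asparagine synthetase, was at 289, 302, 409 and 318 CPM against 25.9 and 36.5 CPM (log2 fold change 3.35, SE 0.23, edgeR adjusted p = 5.46e-06). Slc7a11 was lower and Asns higher in every early reverted library than in either d16 library. Of 19 tested genes of the interferon response and antigen presentation 1 was higher and 12 lower (median -1.39). B2m, the light chain of class I MHC, was at 17.2, 23.3, 31.2 and 17.1 CPM against 143 and 176 CPM (log2 fold change -2.90, SE 0.24, edgeR adjusted p = 1.39e-05), with all 4 early reverted libraries below.

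Few Hox genes passed the filter on low counts, and the counts for imprinted genes were near those of all genes. Of 26 tested imprinted genes 8 were higher and 10 lower, where 37.0% of all tested genes were higher and 37.4% lower (median -0.14, from -0.74 to 0.10 over the alternatives tried). H19, the noncoding RNA gene next to Igf2 on chromosome 7, was at 207, 173, 141 and 30.3 CPM in early reverted cells and 22.9 and 86.4 CPM at d16 (log2 fold change 1.31, SE 0.77, edgeR adjusted p = 0.156). The overlap came from the low value of AICAR+LIF d16+3p, and the gene was called under 4 of 18 alternatives, among them without that library (log2 fold change 1.95) and without AICAR+LIF d16 (2.87). Snrpn and Impact were higher, at 156, 171, 133 and 156 CPM against 34.9 and 33.9 CPM and at 293, 308, 281 and 316 CPM against 67.6 and 82.6 CPM. Grb10 and Gnas, which encode an adaptor of growth factor receptors and a G protein subunit, were lower, at 34.5, 35.5, 22.1 and 21.5 CPM against 784 and 794 CPM and at 81.0, 91.6, 104 and 113 CPM against 1757 and 1370.0 CPM. None of these 4 overlapped between the groups. Of 38 Hox genes only 10 were tested, 2 higher and 7 lower (median -3.86), with the posterior gene Hoxc13 among the higher at 9.54, 9.16, 12.2 and 11.7 CPM against 0.618 and 1.86 CPM. A Hox gene near 0 in one group could pass the filter only through the other group, so these counts are a description. Of all 38, tested or not, 5 lay above both d16 libraries and 18 below both. Among the 15609 genes tested, 6568 lay above and 6169 below. Hox genes that failed the filter are included, some of them near the floor, so their order rests on few counts. Of 28 Polycomb genes 14 were higher and 9 lower (median 0.42). Epop, a modulator of the PRC2 complex, was at 548, 524, 657 and 657 CPM against 2.16 and 7.07 CPM (log2 fold change 7.01, SE 0.34, edgeR adjusted p = 1.15e-06). Cbx7, a CBX protein of PRC1, was at 268, 247, 240.4 and 359 CPM against 3.09 and 3.35 CPM (log2 fold change 6.36, SE 0.26, edgeR adjusted p = 5.95e-07), higher in all 4 early reverted libraries.

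**Figure D5:**
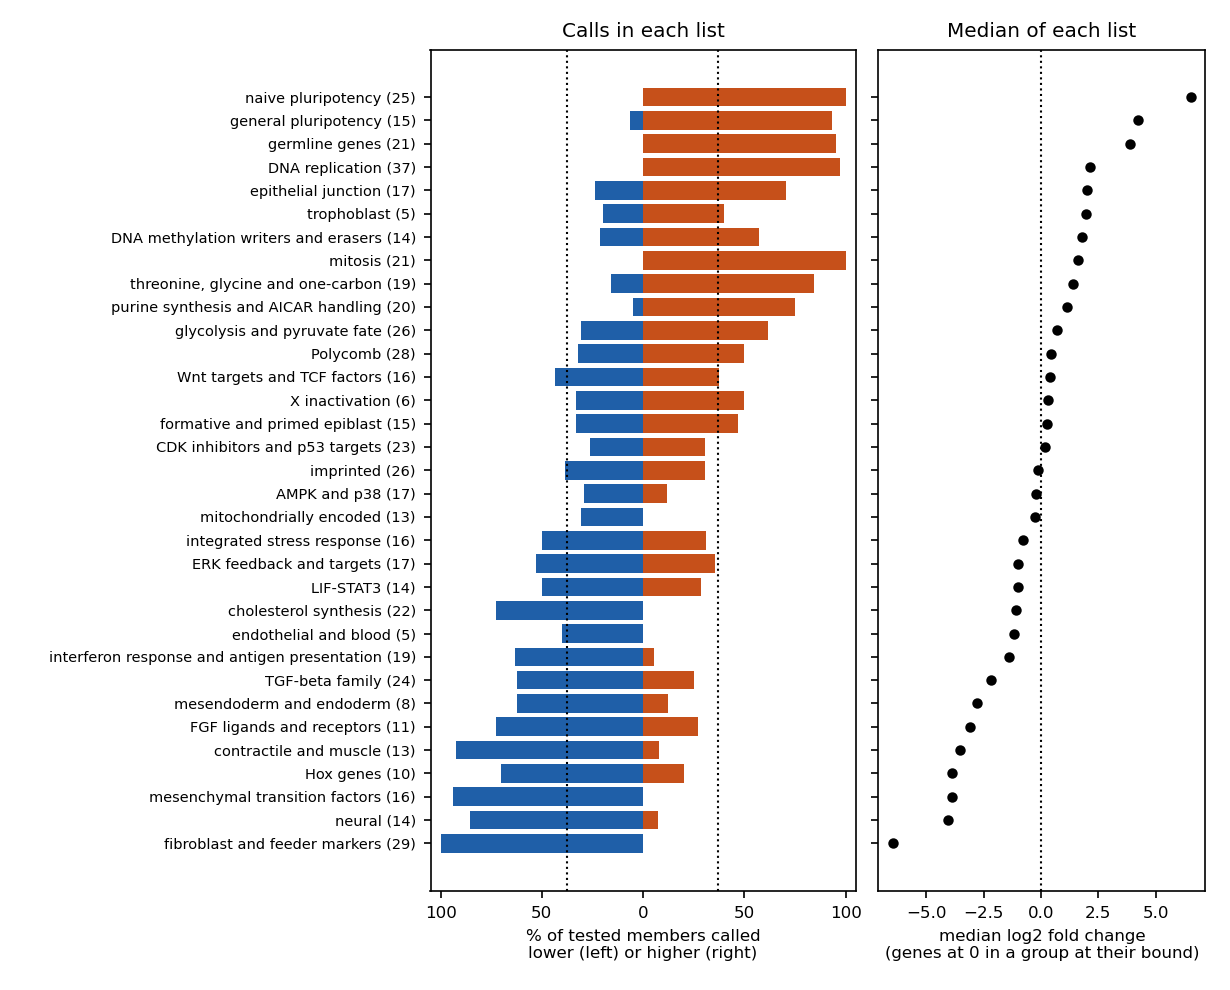
Left, share of the tested genes of each list that were called lower (blue, to the left) or higher (orange, to the right) in early reverted cells, in %, with dotted lines at the shares of all genes tested (37.4% and 37.0%) and the number of tested genes in brackets (lists with at least 5). Right, median log2 fold change of each list, with genes at 0 in a group set to their bound and a dotted line at the median of all genes tested (0.02). The medians run from 6.51 for naive pluripotency genes to -6.43 for fibroblast and feeder markers, and the bars of Wnt, imprinted and CDK inhibitor genes end near or short of the dotted lines in both directions.

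Some genes of the d16 culture were higher after 2 passages than after 3. Of 1292 genes called lower with a d16 mean of at least 100 CPM, 78 were more than 2-fold higher in the mean of the 2p libraries than in the mean of the 3p libraries, 6 were more than 2-fold higher at 3p, and 1208 were within 2-fold (1 CPM added to each mean). Of the 1071 of these genes with an early reverted mean of at least 5 CPM, 40 were more than 2-fold higher at 2p and 5 at 3p, so the other genes among the 78 had a lower mean than that. Of 1843 genes called higher with an early reverted mean of at least 100 CPM, 9 were more than 2-fold higher at 2p and 2 at 3p. Besides Col1a1, the smooth muscle actin gene Acta2 was at 20.9, 20.6, 0.381 and 0 CPM, and the collagen gene Col1a2 at 24.0, 29.8, 1.14 and 0 CPM. Each was above the floor in both 2p libraries, with the 3p libraries near it. A difference between passages was not tested, since the 2p libraries were nearly 1 sample.

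Set against the primed library, genes called higher ended partly near its level and partly above it. Of 4889 genes called higher with a mean of at least 10 CPM in either group, early reverted cells were within 2-fold of the primed library for 2939 (60.1%; 81.4% for genes not called), more than 2-fold above it for 1840 (37.6%) and more than 2-fold below it for 110. The d16 mean was more than 2-fold below the primed library for 1721 of them. Of 5149 genes called lower at the same level, the d16 mean was more than 2-fold above the primed library for 2751 (53.4%), and early reverted cells were within 2-fold of it for 2901 and more than 2-fold below it for 1928. Set against the naive library, early reverted cells were within 2-fold for 4282 of the higher genes (87.6%), 4207 of the lower genes (81.7%) and 2681 of the 2898 genes not called (92.5%). For all these shares 1 CPM was added to each level. A gene near 0 in early reverted cells and in the reference library therefore counts as within 2-fold, as Gfap did against the naive library (0.245 and 0.320 CPM). The shares of genes called lower thus include genes absent on both sides. The primed and naive states were each 1 library, so these shares carry no error, and differences between them were not tested.

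Whether LIF during AICAR treatment changed the step from d16 to early reverted cells was tested as an interaction. With edgeR no gene of 15609 was called (0%), and 549 genes (3.52%) had an unadjusted p under 0.05, with the smallest adjusted p at 0.479. Limma called 0 genes, with 513 at an unadjusted p under 0.05, and DESeq2 called 5, with 141. Without AICAR+LIF d16+2p edgeR called 7 genes, without AICAR+LIF d16+3p it called 3, and with no filter on low counts 63, among them Tdgf1 (-4.11), Lefty1 (-3.19), Nanog (-2.80) and Sbno2 (-2.32; interactions in log2 units). Among the 5 genes that DESeq2 called were Tdgf1, Nanog, Lefty1 and Pou5f1. Tdgf1, the coreceptor of Nodal, was at 329, 311, 362 and 442 CPM in early reverted cells and 2.16 and 43.2 CPM at d16, for an interaction of -4.16 log2 units (SE 0.49, edgeR adjusted p = 0.479; DESeq2 adjusted p = 4.83e-05). Nanog, a core naive factor, was at 471, 487, 626 and 502 CPM against 4.32 and 28.7 CPM, for an interaction of -2.85 (SE 0.42, edgeR adjusted p = 0.752; DESeq2 adjusted p = 0.0029). Pou5f1, whose levels are given above, had an interaction of -2.46 (SE 0.42, edgeR adjusted p = 1; DESeq2 adjusted p = 0.0448). In all 3, the difference lay between the d16 libraries, where AICAR+LIF was higher, and the early reverted libraries with and without LIF were close. Lefty1, an inhibitor of Nodal, was at 58.5, 66.8, 75.4 and 96.6 CPM against 10.8 and 127 CPM. At d16 it was above the early reverted libraries with LIF and below them without it, with an edgeR adjusted interaction p of 0.556. Tdgf1 and Lefty1 were among the 7 genes and among the 3 genes called by edgeR with 1 library left out, with interactions of -3.96 and -3.03 without AICAR+LIF d16+2p and of -4.41 and -3.51 without AICAR+LIF d16+3p. Also among the 7, and chosen here after their values were seen, were H19 (-4.46), Mid1 (5.71), Mid1-ps1 (9.64) and Gm48754 (-5.46), so both signs occurred. In simulated data edgeR found 60 of 200 interactions of 2 log2 units, with 20 other genes called, and 0 of 200 of 1 log2 unit, so an interaction of 1 log2 unit could hardly have been found. With 1 d16 library with LIF and 1 without, each such value rests on those 2 libraries. The interaction tests judged that difference only by the spread between 2p and 3p libraries of the same treatment, which includes any change with passage. These pairs had mean chi-squares of 5.62 without LIF and 6.54 with LIF, and the nearly alike 2p pair lies across treatments. No spread between d16 cultures entered.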

How the data were processed

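Bulk RNA-seq of 22 libraries was used, of which 6 made up the comparison. The authors ran stranded mRNA libraries on a HiSeq2500, mapped the single reads by Bowtie2 2.2.5 against cDNA and ncRNA of Ensembl GRCm38, dropped hits of MAPQ under 1, and deposited raw read counts per gene, not normalized. CPM were computed here from the deposited counts with TMM factors over all 22 libraries. Gene positions came from GENCODE on GRCm38 and promoters from RefSeq.

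Early reverted and d16 libraries were compared by quasi-likelihood F tests in edgeR 4.0.16 (R 4.3.3), with TMM factors over the 6 libraries, filterByExpr, LIF as a covariate and Benjamini-Hochberg adjustment over all 15609 genes tested, at 0.05. The interaction of LIF with the step was fitted in the same way, with a term for it. In simulated data with 200 changed genes, the first test found 72 changes of 1 log2 unit and 178 of 2 (7 and 14 other genes called), and the interaction test 0 and 60 (0 and 20 others). The genes named are the 12 largest rises and the 12 largest falls (called, mean log2 CPM of at least 3, no overlap, no predicted models or pseudogenes), the 5 genes with the smallest interaction p, and key members of 34 gene lists. Further list members were named after their values were seen. Some genes that met these rules are not reported here. The members of the comparison and the lists were chosen with earlier results of these data known. Lists were described by counts and medians, without a test.

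Alternatives used DESeq2 1.42.0 and limma 3.58.1 (voom), other normalization factors or none, no filter or at least 10 counts in every library, no covariate, all 22 libraries, 1 library left out at a time, 2p or 3p alone, and counts thinned to the smallest total. Leaving out a d16 library leaves 1 in that group, which is then assumed to vary like the others. Other steps used Python 3.11.15, numpy 2.4.6, pandas 2.3.3 and matplotlib 3.10.9. The deposited counts per transcript were not used.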

Additional observations from a re-analysis of the deposited data

Results flagged for a closer look

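For 13 of 189 named genes, 1 of the 4 early reverted libraries lay far from the other 3 (Dixon's ratio of gap to range, above its 95% critical value). Chance gives about 1 in 20 for 4 independent libraries, which these were not. The 2p pair was nearly alike, so only a 3p library could readily lie far from the other 3, as it did each time. The cause was not tested. AICAR d16+3p was the highest for Zfp42 (732 CPM), Cdh1 (719 CPM), Fbxo15 (299 CPM), Ppat (218 CPM), Nr5a2 (117 CPM), Nes (35.8 CPM), Rhox13 (19.8 CPM) and Uty (3.05 CPM). AICAR+LIF d16+3p was the highest for Atf4 (280.0 CPM), Utf1 (266 CPM), Sqle (158 CPM) and Lifr (49.6 CPM), and the lowest for Sparc (219 CPM).

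For 2 named genes, the early reverted libraries lay above the d16 library without LIF and below the d16 library with LIF. The interaction was -3.25 log2 units for Lefty1 and -2.37 for Sbno2, a transcriptional regulator gene at 34.0 and 189 CPM at d16. The edgeR test of this difference called neither of the 2 (adjusted p of 0.556 and 0.479), while DESeq2 called Lefty1, and edgeR with no filter on low counts called both (-3.19 and -2.32).

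The naive library, which entered no test and whose Rex1-GFP line the study lists as XX, held Y-linked transcripts, with Ddx3y at 94.8 CPM, Eif2s3y at 95.1 CPM and Uty at 40.0 CPM. The primed library held none of Ddx3y or Eif2s3y. The source of these reads was not tested.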

How the results depend on the processing

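Under all 18 alternatives of the comparison, no gene called both there and with the settings reported changed its direction. The number of called genes stayed within 1.5 times 11621 except with at least 10 counts required in every library, which tests 10565 genes and called 7441 (3701 higher, 3740 lower). Leaving out 1 library at a time gave 9348 to 11389 called genes. Of 195 named genes that were called, 181 kept their call and direction under every alternative in which they were tested, and 14 lost the call under at least 1 and kept the direction. Of the 195, 97 were tested under all 18, and the other 98 had fewer than 10 counts in some library. The medians of 27 of 34 lists kept their sign.

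For the interaction, no filter on low counts called 63 genes and DESeq2 5, and leaving out 1 early reverted library gave 0 to 7. Leaving out a d16 library allows no such fit. The DESeq2 and leave-one-out fits of the interaction, and the fit with both 2p libraries summed, were chosen after seeing the data.

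Signs turned only for named genes that were not called. With DESeq2 the log2 fold change was -0.00468 for Gata6, -0.0588 for Prkaa1 and -0.0131 for Atf4. With limma it was -0.19 for Gata6 and -0.00461 for Prkaa1. With DESeq2 size factors in edgeR it was -0.00695 for Gata6, -0.0589 for Prkaa1 and -0.0116 for Atf4. Without normalization factors it was -0.0433 for Prkaa1, and with at least 10 counts everywhere -0.15 for Prkaa1 and -0.10 for Atf4. With 2p libraries only it was 0.0597 for Tubb3, -0.13 for Prkaa1 and -0.15 for Atf4, with 3p only -1.05 for Sp5, and with the 2p libraries summed -0.0254 for Gata6. Leaving out 1 library gave -1.82 to 0.55 for Sbno2, -0.68 to 2.56 for Lefty1, -0.22 to 0.11 for Tubb3, -0.49 to 0.47 for Gata6, -0.28 to 0.71 for Sp5, -0.0692 to 0.10 for Prkaa1, -0.0309 to 0.52 for Adk, -0.17 to 0.23 for Atf4 and -0.90 to 0.0764 for Meg3. The cause was not tested.

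Depth limits what can be read of rare transcripts, since 3 counts come to about 1 CPM, and with 2 d16 libraries, each of its own condition, condition and sample cannot be told apart.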
